A study of Mus musculus with 4 samples.

Results

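Here 9 genes that mark the pancreatic duct and the bipotent progenitors of the embryonic trunk epithelium were followed in whole pancreas of mouse embryos lacking *Rest* in the pancreatic epithelium. The set was *Sox9*, *Onecut1*, *Glis3*, *Bicc1*, *Cftr*, *Car2*, *Muc1*, *Epcam* and *Spp1*, chosen by symbol as known duct and progenitor genes. All 9 were found among the 24391 genes of the count table, and all 9 passed the filter on low counts, which kept 14550 genes. RNA-seq libraries were made from E18.5 pancreas, 2 from Rest pKO embryos (*Pdx1*-Cre with *Rest* LoxP/LoxP) and 2 from control embryos (*Pdx1*-Cre with wild-type *Rest*). By these labels all embryos carried the Cre transgene, on a mixed background with C57BL/6. Elsewhere the study calls its controls *Rest* LSL, its name for the floxed allele, so whether the control embryos carried Cre or a floxed *Rest* allele is not settled. Excision removes exon 4 of *Rest*, and *Pdx1*-Cre is active in the pancreatic epithelium and not in mesenchyme, vessels or blood cells, which stay in the dissected organ. Each library is numbered as in its label.

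During pancreas development the early epithelium separates into tip cells, which become acinar, and trunk cells, which are bipotent: a trunk cell either switches on *Neurog3* and leaves the epithelium as an endocrine precursor, or stays and becomes duct. SOX9, ONECUT1 and GLIS3 are transcription factors of the trunk that act upstream of *Neurog3* and are kept in duct cells. The mature duct drains the acini and adds bicarbonate-rich fluid, for which it uses the CFTR channel and carbonic anhydrase. REST is a repressor that binds a long DNA element called RE1, and the question addressed here is whether the duct and progenitor programme was altered in pancreas where the epithelium lacked it.

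None of the 9 genes was called different between Rest pKO and control pancreas by edgeR's quasi-likelihood test with Benjamini-Hochberg adjustment over all genes tested. Adjusted p ran between 0.562 and 0.983, and 0 of the 9 reached an unadjusted p of 0.05. Over all 14550 genes, 0.0275% passed the adjusted threshold in either direction and 8.87% passed the unadjusted one, 3.26% higher and 5.61% lower. DESeq2 also called 0 of the 9, with adjusted p between 0.476 and 0.996, where it called 0.182% of genes higher and 0.533% lower. The log2 fold change, Rest pKO over control, lay above 0 for 5 genes and below 0 for 4, with a median of 0.04 against -0.0048 for all genes tested. The 2 Rest pKO libraries lay above both control libraries for *Muc1* and *Epcam*, below both for *Onecut1*, and overlapped them for the other 6. Over all genes 21.5% were separated upward, 21.2% downward and 57.3% overlapped. With 2 libraries a genotype, an exact permutation test of a single gene cannot go below a two-sided p of 0.333. That floor does not apply to edgeR's test, which shares variance between genes. The intervals below come from the same edgeR fit as p, with the SE worked back from the fold change and the test's F. They rest on the same 2 libraries a genotype and show the range of fold changes that the fit allows.

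**Figure D1:**
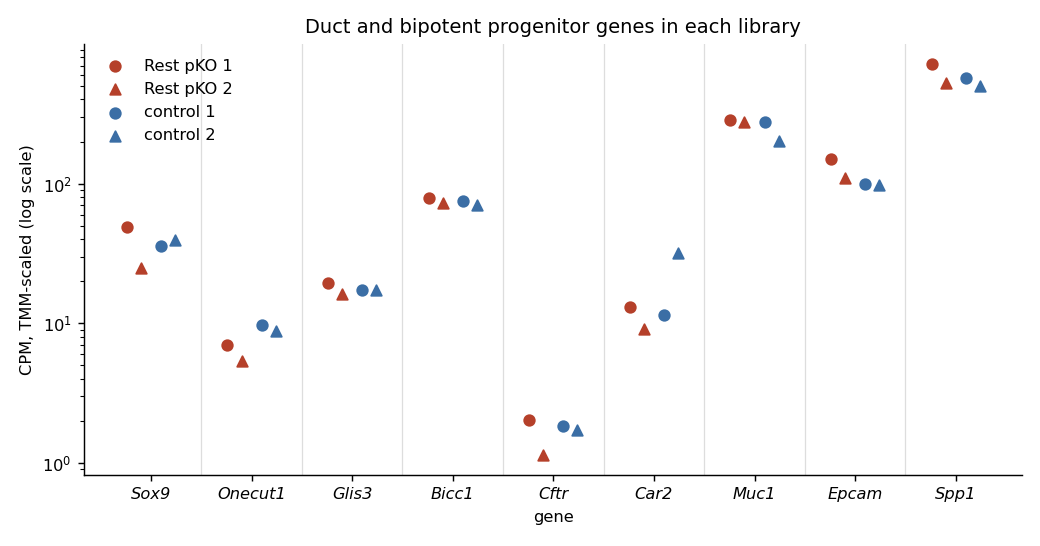
Normalised read counts (CPM, TMM-scaled, log scale) of each of the 9 genes in each of the 4 libraries, with Rest pKO in red left of control in blue, and circles for replicate 1 and triangles for replicate 2. *Spp1* and *Muc1* had the highest CPM, *Cftr* lay between 1.14 and 2.04 CPM, and control replicate 2 stood above the other libraries for *Car2*.

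The libraries held 20738162 and 24134100 counts in Rest pKO replicates 1 and 2, against 16936759 and 18644088 in control replicates 1 and 2. Replicates differed by more than sampling noise, with a chi-square per degree of freedom of 64.9 between the Rest pKO libraries and 23.2 between the controls. *Xist* and Y-linked genes gave 1 female and 1 male embryo in each genotype: Rest pKO replicate 2 and control replicate 1 were female. The labelled tissue was borne out by its markers. The 10 acinar markers, among them *Cpa1* (carboxypeptidase A1), took 23.3% and 29.3% of all counts in Rest pKO replicates 1 and 2, against 22.9% and 23.2% in the controls. *Rest* itself gave 12.1 and 9.16 CPM in Rest pKO pancreas, against 14.2 and 15.7 CPM in controls. Its log2 fold change was -0.49 ± 0.23 (SE; edgeR adjusted p = 0.593), for a count that covers the whole gene and cells that *Pdx1*-Cre does not reach. In whole tissue, fewer cells of a type and less RNA per cell cannot be told apart, which holds for every value below.

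*Sox9*, an HMG-box transcription factor that maintains the progenitor pool and marks duct cells, showed no shift of its mean but a wide spread within the mutant group. There were 49.1 and 25.1 CPM of it in Rest pKO replicates 1 and 2, against 35.8 and 39.5 CPM in control replicates 1 and 2. The mutant libraries thus lay on either side of both controls, 1.96-fold apart. The mean was 37.1 ± 17.0 CPM in Rest pKO and 37.7 ± 2.62 CPM in control pancreas (SD, n = 2 each). On the log2 scale the difference was -0.02 ± 0.30 (SE), with a 95% interval of -0.73 to 0.69 (edgeR adjusted p = 0.983), so that the interval of the fold ran between 0.603 and 1.61. It was -0.58 without Rest pKO replicate 1 and 0.39 without Rest pKO replicate 2, with edgeR adjusted p of 0.0993 and 0.499.

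*Onecut1*, the cut-homeodomain factor also called HNF6, lies upstream of *Neurog3* in the trunk and is needed for normal duct and duct cilium formation. It had 6.96 and 5.37 CPM in the Rest pKO libraries (150 and 118 counts), against 9.76 and 8.83 CPM in the controls (164 and 175 counts). This was the only member for which both mutant libraries lay below both controls. The mean was 6.16 ± 1.12 CPM in Rest pKO and 9.29 ± 0.662 CPM in control pancreas (SD, n = 2 each). The fitted fold was 0.664 of control, with a 95% interval of 0.44 to 1.00 (log2 fold change -0.59 ± 0.25, SE; edgeR adjusted p = 0.562). The sign was negative under all 14 alternative analyses, between -0.79 and -0.41, with adjusted p between 0.136 and 1.00, so that the lower level was not called in any of them.

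Values of other genes that bear on the *Onecut1* count were read beside it. *Onecut1* is also a hepatocyte gene, and hepatocyte transcripts varied widely: *Alb* (albumin) had 52.3 and 8.65 CPM in Rest pKO replicates 1 and 2, against 343 and 10.1 CPM in control replicates 1 and 2. The 6 hepatocyte markers, all tested, summed to between 263 and 272 CPM in Rest pKO and between 131 and 681 CPM in control pancreas. Most of the mutant sums was *Ttr* (transthyretin), which islets also make, with 187 and 258 CPM in Rest pKO, against 144 and 117 CPM in control pancreas (log2 fold change 0.76; edgeR adjusted p = 0.443). The other 5, a sum added after the values were seen, had fold changes below 0 and came to 75.9 and 13.7 CPM in Rest pKO replicates 1 and 2, against 537 and 13.7 CPM in control replicates 1 and 2. Control replicate 1, with the high *Alb*, had 1.11 times the *Onecut1* level of control replicate 2. In the GENCODE M1 annotation the exons of *Onecut1* share 479 bases with those of *Gm16551*, on the same strand. Whether the gene models used for counting did so is not stated in the sources used here. *Gm16551* had 24.5 and 19.0 CPM in Rest pKO pancreas, against 19.9 and 20.5 CPM in controls (log2 fold change 0.11; edgeR adjusted p = 0.867), and the part of either in the *Onecut1* value was not tested.

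*Glis3*, a Krüppel-like zinc finger factor whose loss in humans causes neonatal diabetes with cystic kidneys, was close to even. Its levels were 19.6 and 16.1 CPM in Rest pKO replicates 1 and 2, against 17.2 and 17.5 CPM in the controls. The mutant libraries again bracketed both controls. Its fitted change was a log2 value of 0.04 ± 0.20 (SE), with a 95% interval of -0.41 to 0.50 (edgeR adjusted p = 0.947).

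*Bicc1* encodes an RNA-binding protein of the duct and kidney tubule whose loss gives cysts. It was the most tightly measured of the 9, at 78.3 and 72.6 CPM in Rest pKO and 75.1 and 70.8 CPM in control pancreas. Libraries of the genotypes alternated in rank. In the fit this gave a log2 fold change of 0.05 ± 0.17 (SE), with a 95% interval of -0.34 to 0.44 (edgeR adjusted p = 0.926), which bounds the fold at between 0.788 and 1.36.

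RE1-like sequences near these genes were searched in the mm9 genome, to show what lies around the transcription factors and *Bicc1*. The element was taken as TTCAGCACC, a gap of 2 bases, then GGACAGCGC, read on both strands within 10000 bp either side of the gene start in GENCODE M1. The 18 fixed positions were compared, with no other motif searched. *Onecut1* had the closest match among the members, with 3 mismatches at 2 sites in its introns, 4759 and 6625 bp downstream of its start. A match with at most 3 mismatches was found for 3.2% of 13434 genes tested that had a position. *Sox9* had 4 mismatches, in a coding exon 586 bp downstream of its start, and *Bicc1* had 4, in an intron 9447 bp downstream. At most 4 were found for 18.3% of genes. *Glis3*, *Muc1* and *Epcam* had 5, at or below which lay 76.2% of genes, *Car2* and *Spp1* had 6, and *Cftr* had 7. The study also mapped REST binding by ChIP-seq in wild-type pancreas of an earlier embryonic stage. It names *Onecut1* and *Glis3* among the genes with REST-bound regions. Whether those regions hold the matches found here was not tested. *Chga*, an islet granule gene and known REST target, had 1 mismatch and is shown for comparison. In these lines capitals mark bases that match the element, on the strand given. They are a description of letters and not of binding.
*Onecut1*, chr9:74714487-74714506, plus strand: TgCAGCACCcgGGACttCGC
*Onecut1*, chr9:74716353-74716372, plus strand: gTCAGgACCctGGACAGaGC
*Sox9*, chr11:112644124-112644143, minus strand: TTCAGCACCtgGctgAcCGC
*Bicc1*, chr10:70612982-70613001, minus strand: TTCAGCtCCtgGGtCtGtGC
*Chga*, chr12:103793448-103793467, plus strand: TTCAGCACCtcGGACAGCaC

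The surroundings of the matches are given for *Onecut1*, the member with the fewest mismatches, which was separated downward in Rest pKO. *Muc1* and *Epcam*, separated upward, had 5 mismatches and are not shown. Capitals here mark the whole 20-base match within 100 bases of the plus strand. *Chga* went the other way from *Onecut1*, at 314 and 365 CPM in Rest pKO pancreas, against 156 and 119 CPM in controls. Its log2 fold change was 1.30 (edgeR adjusted p = 0.349, DESeq2 adjusted p = 3.12e-05).
*Onecut1* chr9:74714447-74714546: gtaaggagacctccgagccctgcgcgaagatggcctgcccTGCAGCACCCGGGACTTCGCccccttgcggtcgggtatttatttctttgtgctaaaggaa
*Onecut1* chr9:74716313-74716412: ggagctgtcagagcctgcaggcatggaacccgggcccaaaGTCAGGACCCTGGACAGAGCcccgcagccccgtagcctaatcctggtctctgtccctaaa

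*Cftr*, the apical chloride and bicarbonate channel of duct cells, was the least abundant member per length. Its counts were 44 and 25 in Rest pKO replicates 1 and 2, against 31 and 34 in the controls. These give 2.04 and 1.14 CPM in Rest pKO pancreas, against 1.85 and 1.71 CPM in controls. The exact Poisson 95% intervals were 1.48 to 2.74 and 0.737 to 1.68 CPM in the mutants and 1.25 to 2.62 and 1.19 to 2.40 CPM in the controls, counting error only, and all 4 share values. The log2 fold change of -0.16 ± 0.44 (SE) had a 95% interval of -1.18 to 0.85 (edgeR adjusted p = 0.906), which is a fold between 0.442 and 1.81.

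*Car2*, carbonic anhydrase II, which supplies bicarbonate in duct cells, is also abundant in red cells. It had 13.0 and 9.16 CPM in the Rest pKO libraries, against 11.5 and 31.8 CPM in control replicates 1 and 2. A single library, control replicate 2, was high, and the other control lay between the mutants. Over the 4 libraries the log2 fold change was -0.97 ± 0.44 (SE), with a 95% interval of -1.99 to 0.05 (edgeR adjusted p = 0.584). Without control replicate 1 it was -1.52 (edgeR adjusted p = 0.00291, where 1.05% of genes were called lower), the only call of a member under any of the 14 alternatives. Without control replicate 2 it was -0.06 (adjusted p = 0.998).

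Red cell transcripts were high in the same control library. *Slc4a1*, the red cell anion exchanger, had 3.06 and 1.41 CPM in Rest pKO pancreas, against 10.2 and 52.4 CPM in control replicates 1 and 2. Of 10 red cell markers 5 were tested, all with a log2 fold change below 0. The list summed to between 22.2 and 22.7 CPM in Rest pKO and between 34.1 and 147 CPM in control pancreas, with the globins *Hbb-b1* and *Hba-a1* at 0 counts in the table. The part of red cells in the *Car2* value was not tested.

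**Figure D2:**
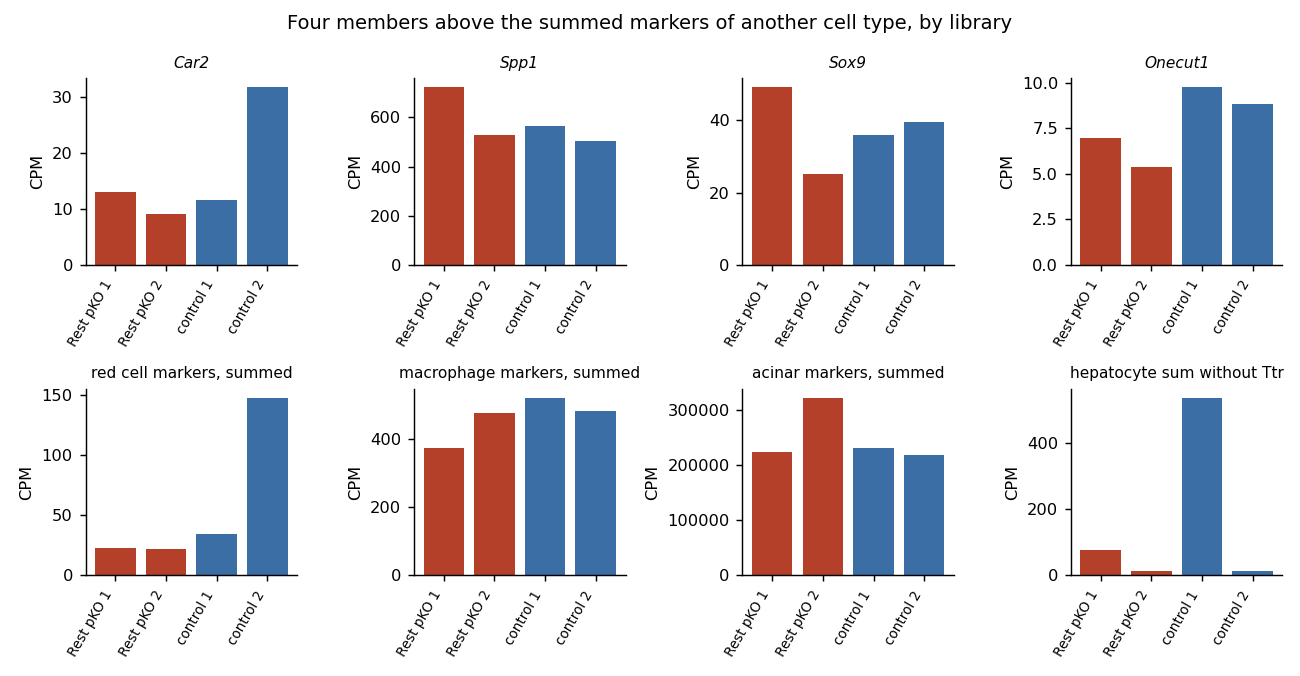
Top row, TMM-scaled CPM of *Car2*, *Spp1*, *Sox9* and *Onecut1*, and bottom row, summed CPM of the red cell, macrophage, acinar and hepatocyte markers (the last without *Ttr*), as 1 bar for each library, Rest pKO in red and control in blue. Control replicate 2 was highest for both *Car2* and the red cell sum, at 31.8 and 147 CPM, and Rest pKO replicate 2 was lowest for *Sox9* and highest for the acinar sum.

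*Muc1*, a transmembrane mucin of the apical duct surface, was separated upward by a small margin. It had 285 and 276 CPM in Rest pKO, against 275 and 203 CPM in control pancreas. The lower mutant and the higher control nearly met, and control replicate 2 was the low one. The log2 fold change was 0.23 ± 0.21 (SE), with a 95% interval of -0.26 to 0.73 (edgeR adjusted p = 0.737).

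*Epcam*, the epithelial cell adhesion molecule, marks epithelial cells, duct and progenitor cells among them. It had 149 and 109 CPM in Rest pKO replicates 1 and 2, against 99.7 and 98.2 CPM in the controls. Both mutants lay above both controls, and Rest pKO replicate 1 stood apart. The mean was 129 ± 28.2 CPM in Rest pKO and 99.0 ± 1.03 CPM in control pancreas (SD, n = 2 each). Fitted on the log2 scale, this was a difference of 0.38 ± 0.20 (SE), with a 95% interval of -0.09 to 0.86 (edgeR adjusted p = 0.636). It was 0.14 without Rest pKO replicate 1 and 0.59 without Rest pKO replicate 2, with edgeR adjusted p of 0.576 and 0.271.

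*Spp1* encodes osteopontin, a secreted glycoprotein that binds integrins and CD44. It was the most abundant member per length. Rest pKO replicates 1 and 2 had 723 and 527 CPM, against 567 and 502 CPM in the controls. Rest pKO replicate 1 was highest and the other 3 libraries lay close together. The log2 fold change was 0.22 ± 0.23 (SE), with a 95% interval of -0.32 to 0.76 (edgeR adjusted p = 0.759). Macrophages also make osteopontin. Of 13 macrophage markers 12 were tested, 3 above 0 and 9 below, and the list summed to between 373 and 474 CPM in Rest pKO and between 480 and 518 CPM in control pancreas. edgeR called 0 of them and DESeq2 called 3, while 4 lay lower and 1 higher at an unadjusted p of 0.05. *Itgam*, an integrin subunit of myeloid cells, had 3.89 and 7.15 CPM in Rest pKO, against 17.3 and 20.1 CPM in control pancreas (log2 fold change -1.76; edgeR adjusted p = 0.349, DESeq2 adjusted p = 0.000867). *Ptprc*, the common leukocyte antigen, *Lyz2*, a lysozyme, and *Mrc1*, the mannose receptor, were also separated downward, at -1.55, -1.21 and -0.64 on the log2 scale. *C1qa*, a macrophage complement gene, was separated upward, at 143 and 127 CPM in Rest pKO, against 110 and 58.3 CPM in controls. Its log2 fold change was 0.68 (edgeR adjusted p = 0.562). *Csf1r*, the receptor that defines these cells, had 39.5 and 69.1 CPM in Rest pKO, against 62.3 and 56.3 CPM in control pancreas, which overlap. The part of macrophages in the *Spp1* value was not tested.

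**Figure D3:**
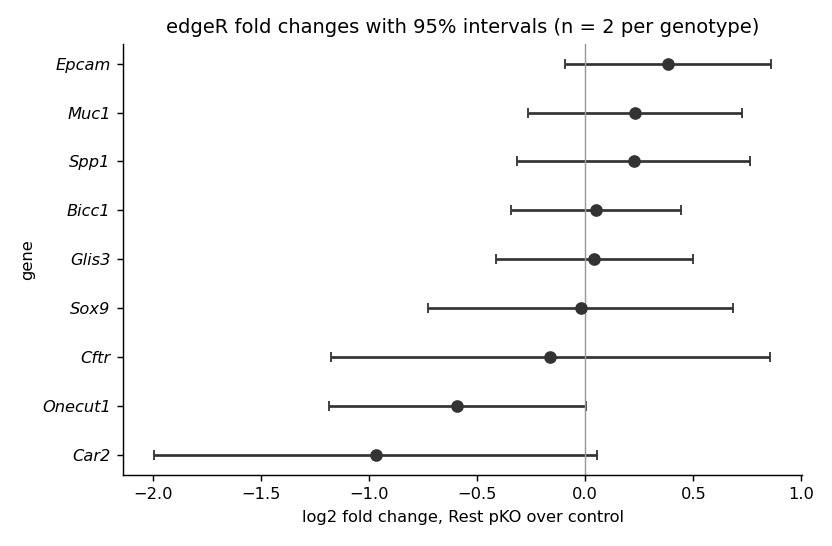
Log2 fold change of each of the 9 genes, Rest pKO over control, from the edgeR fit, with bars for the 95% interval (n = 2 libraries a genotype). Every interval reached 0, the *Onecut1* interval only just, and they were narrowest for *Bicc1* and widest for *Car2* and *Cftr*.

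The log2 ratio of the mutant libraries exceeded the log2 fold change between genotypes in size for 6 of the 9 genes: *Sox9*, *Glis3*, *Bicc1*, *Cftr*, *Epcam* and *Spp1*. The share of all genes for which this holds was not taken. All 9 were higher in Rest pKO replicate 1 than in Rest pKO replicate 2, where 48% of all genes tested were. The ratio of the mutant libraries ran between 1.03 for *Muc1* and 1.96 for *Sox9*, with a median of 1.37 against 0.983 for all genes. In the controls 6 of the 9 were higher in replicate 1, where 49.5% of all genes were, and the median ratio was 1.06 against 0.998. Rest pKO replicate 1 was the highest of the 4 libraries for 7 members, where it was for 21.8% of genes. The median SD of log2 CPM between replicates was 0.316 for the members and 0.205 for all genes in Rest pKO, and 0.0976 for the members and 0.125 for all genes in control pancreas. The acinar share of counts and the embryo's sex, given above, also differ between these mutant libraries, and their part in the spread was not tested.

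**Figure D4:**
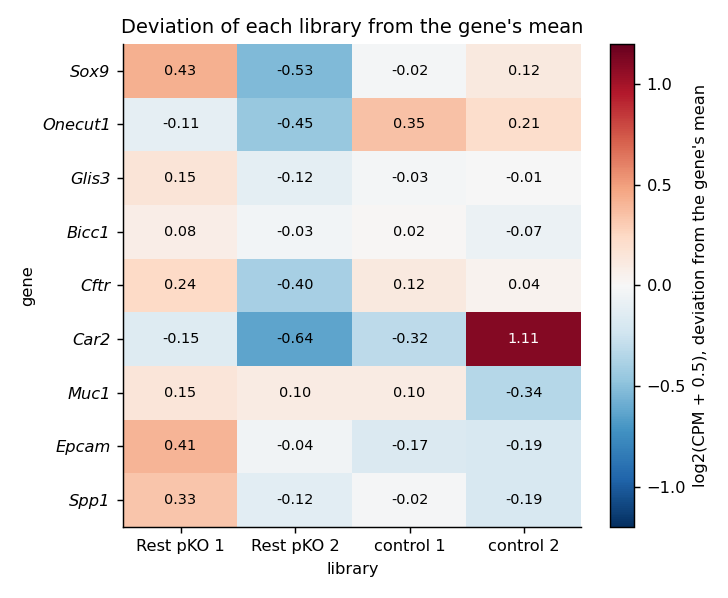
Deviation of each library from the gene's mean over the 4 libraries, on the log2(CPM + 0.5) scale, for each of the 9 genes; red is above and blue below the mean. Each row is higher in Rest pKO 1 than in Rest pKO 2, and the *Car2* value of control 2, at 1.11, is the farthest from 0.

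Set per kilobase of exon in GENCODE M1, so that genes can be compared, levels spanned a 1621-fold range of means over the 4 libraries. *Spp1* came the highest, at 379 ± 84.2 CPM per kb in Rest pKO and 324 ± 27.7 in control pancreas (SD, n = 2 each). *Muc1* followed at 119.7 ± 2.57 CPM per kb in Rest pKO and 102 ± 21.8 in control pancreas, and *Epcam* at 63.2 ± 13.8 CPM per kb in Rest pKO and 48.5 ± 0.507 in control pancreas. *Bicc1*, *Car2* and *Sox9* came next, at 9.97, 9.16 and 9.05 CPM per kb over the 4 libraries, and the ranges of these neighbours overlapped, so that their order is not settled. *Onecut1* had 2.91 ± 0.528 CPM per kb in Rest pKO and 4.39 ± 0.313 in control pancreas. *Glis3* had 2.02 ± 0.275 CPM per kb in Rest pKO and 1.96 ± 0.0197 in control pancreas. *Cftr* came last, at 0.205 ± 0.0821 CPM per kb in Rest pKO and 0.229 ± 0.0119 in control pancreas. Apart from *Bicc1*, *Car2* and *Sox9*, no neighbours in this order overlapped over the 4 libraries. The 3 surface and secreted proteins were thus the highest, and *Onecut1*, *Glis3* and *Cftr* the lowest.

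Other genes of the duct were also divided by sign. Of 15 other duct genes, all tested, 7 had a log2 fold change above 0 and 8 below, with a median of -0.01. Of these 15, 4 were separated upward and 0 downward, where 21.5% and 21.2% of all genes tested were. edgeR called 0 of them, and 0 reached an unadjusted p of 0.05. *Krt19*, the duct keratin, had 64.8 and 104 CPM in Rest pKO, against 130 and 94.3 CPM in control pancreas (log2 fold change -0.41; edgeR adjusted p = 0.671). It was lowest in Rest pKO replicate 1, the library in which 7 of the 9 members were highest. *Sctr*, the receptor for secretin, and *Cys1*, a cilium protein, were separated upward, at 0.66 and 0.40 on the log2 scale.

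Among 14 transcription factors of the pancreatic progenitor, 13 were tested and 0 were called by edgeR, with 0 at an unadjusted p of 0.05, 10 above 0, 3 below and a median log2 fold change of 0.08. *Pdx1*, needed for pancreas formation, had 12.0 and 9.25 CPM in Rest pKO, against 12.2 and 8.78 CPM in control pancreas. *Nkx6-1*, a factor of trunk and later beta cells, had 7.84 and 5.92 CPM in Rest pKO, against 7.14 and 5.14 CPM in controls. *Ptf1a*, the acinar and early progenitor factor, had 39.4 and 40.9 CPM in Rest pKO, against 38.2 and 41.4 CPM in controls. Each of these 3 overlapped between genotypes. Of the 13 tested, 2 were separated upward and 2 downward, where 21.5% and 21.2% of all genes tested were. *Gata6* was separated downward, at 28.8 and 22.0 CPM in Rest pKO, against 36.8 and 30.3 CPM in control pancreas (log2 fold change -0.40; edgeR adjusted p = 0.637).

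Endocrine precursor genes, which lie directly downstream of the trunk factors, all had positive fold changes. *Neurog3* had 17.4 and 15.5 CPM in Rest pKO pancreas, against 8.99 and 11.5 CPM in controls. Its log2 fold change was 0.68 ± 0.22 (SE; edgeR adjusted p = 0.480). All 7 genes of the list lay above 0, with a median of 0.47, 3 were separated upward and 0 were called, and *Neurog3* was the only gene at an unadjusted p of 0.05. *Rfx6*, a factor of endocrine specification, had 14.5 and 10.3 CPM in Rest pKO, against 9.94 and 8.07 CPM in control pancreas. All 7 were also higher in Rest pKO replicate 1 than in replicate 2, as the 9 members were.

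Genes of the primary cilium and of cystic kidney disease were examined because *Bicc1* and *Glis3* belong with them. All 14 were tested, 6 lay above 0 and 8 below, the median log2 fold change was -0.04, and edgeR called 0, with 0 at an unadjusted p of 0.05. *Anks6*, whose protein binds BICC1, had 7.47 and 9.11 CPM in Rest pKO, against 6.01 and 7.46 CPM in control pancreas (log2 fold change 0.30; edgeR adjusted p = 0.728). *Pkhd1*, the gene of recessive polycystic kidney disease in humans, had 38.2 and 32.8 CPM in Rest pKO, against 37.1 and 39.7 CPM in controls. In this list 3 genes were separated upward, *Anks6* among them, and 2 downward. Over all genes tested the shares were 21.5% and 21.2%. *Pkd2* was separated downward, at -0.29 on the log2 scale.

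For the secretory genes *Cftr* and *Car2*, the transport list held 11 genes, of which 7 were tested, with 3 above 0, 4 below and a median log2 fold change of -0.04. edgeR called 0 of them. *Kcnq1*, a potassium channel subunit, was the gene with an unadjusted p under 0.05, at 31.8 and 30.2 CPM in Rest pKO, against 23.7 and 22.0 CPM in control pancreas (log2 fold change 0.44; edgeR adjusted p = 0.540). *Slc4a4*, the basolateral sodium bicarbonate cotransporter of duct cells, had 17.8 and 15.4 CPM in Rest pKO, against 21.0 and 16.5 CPM in controls.

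Most genes in the list of *Spp1* receptors and *Epcam* partners lay lower. *Cldn7* and *Cd9*, on the *Epcam* side, overlapped between genotypes, at -0.06 and 0.03 on the log2 scale. Of 9 genes tested 7 had a log2 fold change below 0, with a median of -0.31, and 4 were separated downward, while edgeR called 0 and 3 reached an unadjusted p of 0.05. *Cd44*, a receptor for osteopontin and hyaluronan, had 54.3 and 49.6 CPM in Rest pKO, against 105 and 83.6 CPM in control pancreas (log2 fold change -0.86; edgeR adjusted p = 0.357, DESeq2 adjusted p = 0.0404). *Itga4*, an integrin subunit of leukocytes and mesenchyme, had 8.62 and 6.29 CPM in Rest pKO, against 13.0 and 22.4 CPM in controls (log2 fold change -1.25; edgeR adjusted p = 0.408). For *Itgav*, the integrin alpha V subunit, levels were 56.2 and 37.8 CPM in Rest pKO, against 75.9 and 69.8 CPM in control pancreas (log2 fold change -0.63; edgeR adjusted p = 0.495). These genes are also made by mesenchyme, whose 10 markers summed to between 5180 and 7919 CPM in Rest pKO and between 8392 and 9628 CPM in control pancreas, with 8 of 10 fold changes below 0. The part of mesenchyme in these values was not tested.

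The pan-epithelial list, which includes genes shared by duct, acinar and endocrine cells, had 8 of 10 fold changes above 0 and a median of 0.23, with 5 separated upward and 0 called by edgeR. *Cldn4*, a tight junction claudin, had 19.8 and 22.1 CPM in Rest pKO, against 11.8 and 15.6 CPM in control pancreas (log2 fold change 0.61; edgeR adjusted p = 0.495). Of these 10 genes 3 were higher in Rest pKO replicate 1 than in replicate 2, as were 9 of the 15 other duct genes, 10 of the 13 progenitor factors tested and 8 of the 14 cilium genes. The islet list, with *Ins1* among it, had 9 of 9 fold changes above 0, a median of 1.10 and 7 genes at an unadjusted p of 0.05. Of these 9, 8 were separated upward, where 21.5% of all genes tested were. edgeR called 0 of all the listed genes outside the members, and DESeq2 called 14. Among the 14 were the islet genes *Ins1* (DESeq2 adjusted p = 1.52e-05) and *Chga*, and also genes that lay lower, such as *Cd44* and *Itgam*.

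**Figure D5:**
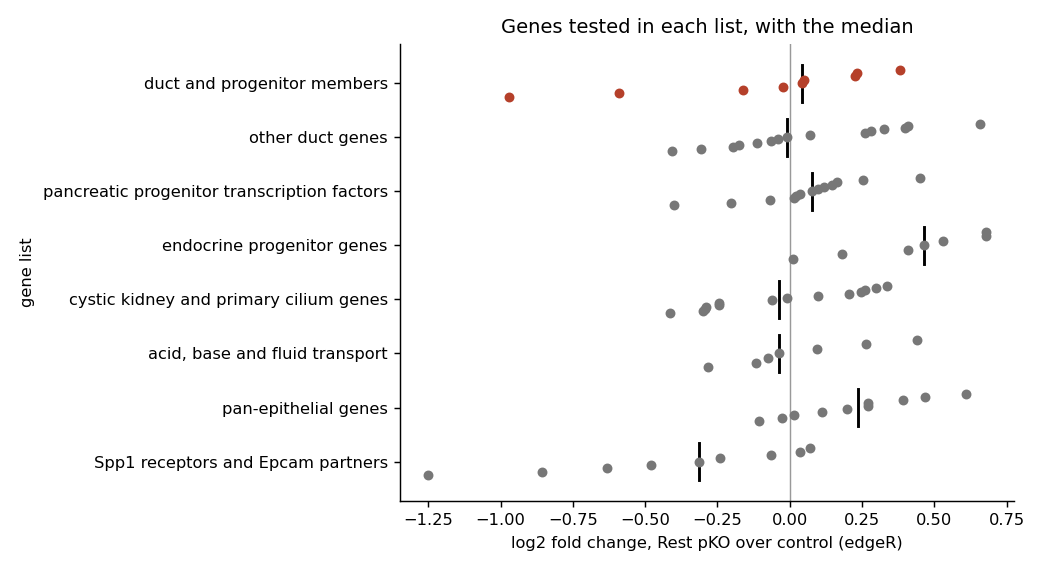
Log2 fold change (Rest pKO over control, edgeR) of each tested gene of the 9 members, in red, and of 7 other gene lists, in grey, with a black bar at the median of each list. Medians of the members, the other duct genes, the progenitor factors, the cilium genes and the transport genes lie within 0.08 of 0, and that of the endocrine precursor genes at 0.47.

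The genes most like the 9 were sought among 146 genes of the other lists with a mean of at least 1 CPM, by the root mean square difference of centred log2 CPM from the members' median in each of the 4 libraries. That median deviated by 0.15 and -0.12 in Rest pKO replicates 1 and 2, against -0.02 and -0.01 in control replicates 1 and 2. *Prom1*, the surface glycoprotein prominin of duct and progenitor cells, came closest, at 0.0404. Its levels were 139 and 112 CPM in Rest pKO, against 130 and 129 CPM in control pancreas. *Cdh1* (E-cadherin) followed at 0.0466, then *Cd9* at 0.0602, *Prox1* at 0.0651 and *Esrp1* at 0.0684. With 4 libraries this is a description of profiles only.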

How the data were processed

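The authors deposited whole-number counts per gene, made from STAR alignments of paired-end reads to mm9 and assigned to UCSC genes by featureCounts (1.5 in the submitters' processing notes), from uniquely mapped reads. Strand setting and whether pairs or reads were counted are not given in the sources used here. How reads over overlapping or antisense genes were assigned is not known from them. Of the 3 pancreas per genotype that the methods mention, the 2 represented by libraries are not identified. Nothing in the labels says that replicates came from separate litters, so p-values measure the spread between these samples.

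Depth was 16936759 to 24134100 counts per library. Counts were tested with edgeR 4.0.16 in R 4.3.3 (filterByExpr with a count minimum of 10, TMM, glmQLFit and glmQLFTest, genotype only) and adjusted by Benjamini-Hochberg over 14550 genes at 0.05. Intervals of fold changes used 7.48 degrees of freedom. CPM use library sizes scaled by TMM. DESeq2 1.42.0, limma 3.58.1 (voom), other scalings and filters, sex, the replicate number, exon length and leaving out each library were alternatives. The fit was tested on simulated data. Exon lengths and positions were taken from GENCODE M1 by symbol.

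Members and gene lists were chosen with earlier results of these data known. Besides the members, *Rest* and *Neurog3*, up to 4 genes a list were named by smallest p, with a few set duct, progenitor and marker genes and the 5 genes most like the members. *Alb* and *Chga* fall under the same rule. *C1qa* and *Cldn7* were named after the values were seen. A few genes of these lists are counted but not reported here by name.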

Additional observations from a re-analysis of the deposited data

Results flagged for a closer look

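Each genotype has 1 female and 1 male library, so the difference between genotypes can be read within each sex with 1 library against 1. For 5 of the 9 genes it had opposite signs, on the log2(CPM + 0.5) scale, Rest pKO minus control. The share of all genes with opposite signs was not taken, so this count cannot be called a trait of the members. All 5 were negative in females and positive in males. Every member was also higher in Rest pKO replicate 1, the male, than in Rest pKO replicate 2, the female. *Sox9* differed by -0.51 in females and 0.31 in males. For *Cftr* the values were -0.52 in females and 0.20 in males, and for *Spp1* they were -0.11 in females and 0.52 in males. *Glis3* gave -0.091 in females and 0.16 in males, and *Bicc1* gave -0.048 in females and 0.15 in males. The difference between the sexes was not tested, since no sex has a replicate within a genotype, and sex and individual embryo cannot be told apart. *Onecut1* and *Car2* were lower, and *Muc1* and *Epcam* higher, in Rest pKO within both sexes, by as little as 0.0061 for *Muc1* in females.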

How the results depend on the processing

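Across 14 alternatives and 10 genes (the members and *Rest*), 133 of 140 fold changes kept their sign and their side of the threshold. *Car2* passed in 1, without control replicate 1, at -1.52, making 1 member called against 0 otherwise. Signs turned in 6, all with a library left out: *Sox9* without Rest pKO replicate 2 (0.39) and without control replicate 2 (0.05), *Cftr* without Rest pKO replicate 2 (0.20), and without Rest pKO replicate 1 *Glis3* (-0.10), *Bicc1* (-0.0025) and *Spp1* (-0.019). The cause was not tested. The fold changes of these 5 genes with a library left out ran between -0.58 and 0.39 for *Sox9*, -0.10 and 0.18 for *Glis3*, -0.0025 and 0.11 for *Bicc1*, -0.64 and 0.20 for *Cftr*, and -0.019 and 0.44 for *Spp1*. Leaving out each library in turn gave 0 to 1 members called, a median member log2 fold change of -0.10 to 0.20, 1 to 514 genes called over all genes and 0 to 18 in the other lists; the group left with 1 library is then assumed to vary like the other. Over all genes edgeR called 4, DESeq2 102, the fit with sex as a term 247, and the replicate block with an exon-length offset 97. In the other lists these 3 called 14, 17 and 8, against 0. Replicate numbers pair libraries only by number: deviations of same-numbered libraries correlated at 0.0652, and the replicate block alone called 4 genes, 0 of them members. Crossed numbers are the same fit as sex as a term. Depth limits *Cftr* most, with 25 to 44 counts a library.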

Other observations

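Of 9 paralogues of the members, 5 were tested and edgeR called 0, with 0 at an unadjusted p of 0.05. *Onecut3* had no count, *Car1* had 5 counts over the 4 libraries, and *Onecut2*, assigned to the duct list, had 2.50 and 0.865 CPM in Rest pKO, against 1.37 and 2.47 CPM in control pancreas. *Sox10*, the paralogue of *Sox9* that marks Schwann cells, had 4.27 and 2.41 CPM in Rest pKO, against 2.02 and 1.61 CPM in control pancreas (log2 fold change 0.88; edgeR adjusted p = 0.589). All 6 endothelial markers had fold changes above 0, with a median of 0.31 on the log2 scale, and *Pecam1* had 158 and 171 CPM in Rest pKO, against 103 and 127 CPM in control pancreas. All 5 mesothelial markers lay below 0, with a median of -0.64.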
